A study of Ovis aries with 9 samples.

Results

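The genes described here mark T cells in bulk RNA-Seq libraries of whole sheep ovaries. They are CD2, the receptor chains CD3D, CD3E, CD3G and CD247, the kinases LCK and ZAP70, the coreceptors CD4 and CD8A, and the interleukin 7 receptor IL7R. They were found by their symbols, and all 10 had a row among the 27174 rows of the count table. The expression filter kept 9 of the 10, and 16871 rows in all. CD247 was the member below the filter.

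The study compared 3 groups of adult ewes, with 1 library per ewe and 3 ewes per group. The Han BB group held Small Tail Han sheep of genotype FecBBFecBB (ewes W1, W2 and W4). The Han ++ group held Small Tail Han sheep of genotype FecB+ FecB+ (W6, W7 and W8). The Dorset group (D4, D5 and D6) was labelled wild type and served as the low fecundity control. Breed and FecB genotype therefore differ together in Han BB against Dorset. In Han ++ against Dorset the breed differs, and by the labels neither group carries the B allele. All groups shared a narrow age range, a progestagen sponge, an injection of pregnant mare serum gonadotropin, and collection of the ovary after the next spontaneous estrus.

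T cells recognise antigen through a receptor that signals with the help of the CD3 chains and the zeta chain encoded by CD247. LCK, held near the receptor by CD4 or CD8, phosphorylates these chains, and ZAP70 then binds them and passes the signal on. In the ovary, T cells are known as a minor population of the stroma and of the follicle wall around ovulation and in the corpus luteum. In a whole organ, fewer T cells and less RNA per T cell cannot be told apart.

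Library depth ranged from 10803913 to 20992535 counted reads. Levels are given as CPM, the reads of a gene scaled to a common library size after TMM normalization, with the SD over the ewes of each group as the error. The libraries W4 of Han BB and D6 of Dorset stood apart from the other 7. They correlated more with each other (Spearman rho 0.978 over the tested genes) than with any library of their own group. This trait was not particular to them. W1, D4 and D5 also correlated most with a library of another group (0.978 with W6, 0.956 with W2 and 0.962 with W7). On the first principal component, D4 (118) lay opposite W4 (-107) and D6 (-103). In D4, 1 row (LOC101101865) held 14.9% of all reads. For some of the results that rest on W4, D6 or D4, values without these libraries are also given.

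All 9 tested T cell genes had reads in every ovary, at low levels, and no group stood out. Summed over the 9 tested members, the level was 42.2 ± 9.21 CPM for Han BB (SD, n = 3), 38.1 ± 0.903 CPM for Han ++ and 42.0 ± 9.61 CPM for Dorset. The lowest sum was 33.1 CPM in W2 and the highest 53.0 CPM in D6, so the groups overlapped. The 3 Han ++ ewes lay close together, from 37.1 to 38.9 CPM, while each of the other groups held both a low and a high ewe.

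**Figure D1:**
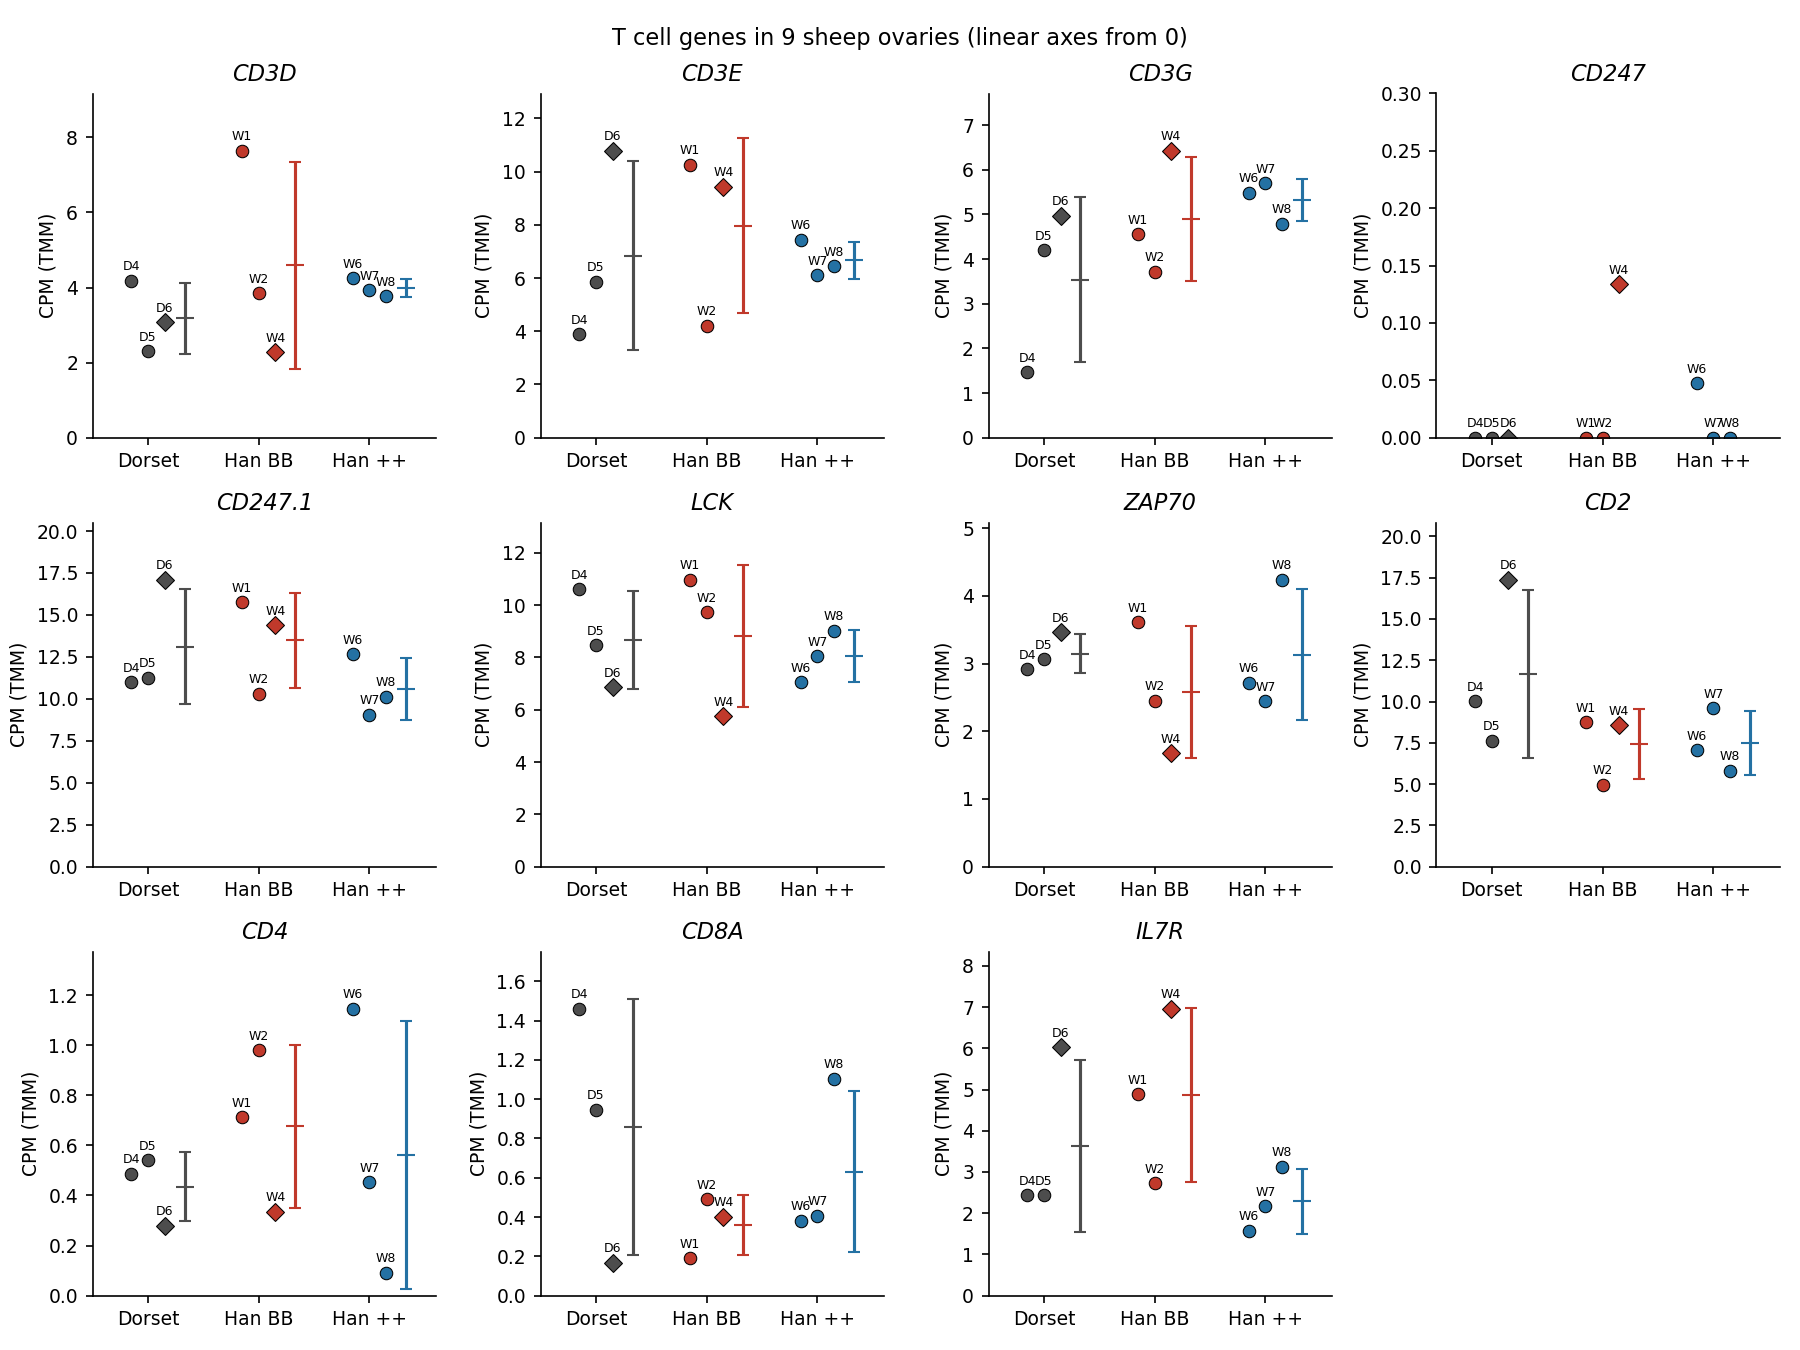
Level of each T cell gene in CPM (linear axis from 0) in every ewe, with the group mean ± SD (n = 3) beside the points; diamonds mark W4 and D6, and no mean is drawn for CD247, which has 3 reads in all. In every panel the 3 groups overlap, and D6 is highest for CD2 at 17.4 CPM.

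Of the 3 CD3 chains, CD3E had 40 to 216 reads per library. It lay at 10.3, 4.20 and 9.43 CPM in the Han BB ewes W1, W2 and W4, at 7.44, 6.11 and 6.45 CPM in the Han ++ ewes W6, W7 and W8, and at 3.89, 5.86 and 10.8 CPM in the Dorset ewes D4, D5 and D6. The lowest and the highest values were both in Dorset, and the Han ++ values lay inside the ranges of the other groups. The group means were 7.96 ± 3.28 CPM in Han BB, 6.67 ± 0.694 CPM in Han ++ and 6.84 ± 3.55 CPM in Dorset.

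CD3G encodes the gamma chain. Its levels were 4.56, 3.71 and 6.42 CPM in Han BB (W1, W2, W4), 5.49, 5.70 and 4.79 CPM in Han ++ (W6, W7, W8) and 1.46, 4.19 and 4.97 CPM in Dorset (D4, D5, D6). D4, with 15 reads, was far below the other 8 ewes, and it set the lower mean of Dorset (3.54 ± 1.84 CPM, against 4.90 ± 1.39 in Han BB and 5.33 ± 0.476 in Han ++). The log2 fold change of Han ++ against Dorset was 0.58 (SE 0.46, edgeR adjusted p = 1.000), and 0.21 without D4.

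CD3D, the delta chain, gave another order. It lay at 7.64, 3.85 and 2.27 CPM in W1, W2 and W4, at 4.25, 3.94 and 3.78 CPM in W6, W7 and W8, and at 4.18, 2.30 and 3.07 CPM in D4, D5 and D6. W1 was highest by far, and W4 and D5 were lowest. The means ran from 4.59 ± 2.76 CPM in Han BB through 3.99 ± 0.239 CPM in Han ++ to 3.19 ± 0.948 CPM in Dorset, and none of these neighbours differed beyond their spread. The log2 fold change of Han BB against Dorset was 0.54 (SE 0.49, edgeR adjusted p = 0.996), and -0.04 without W1.

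The chains of the same receptor complex differed in how constant their proportion was across the ovaries. CD3D and CD3G, shown here, had the widest range of the chain ratios computed, with a highest ratio 8.09 times the lowest. The same measure was 4.46 for CD3D to CD3E and 2.49 for CD3G to CD3E. It was 1.91 for CD247.1, a second zeta chain row described below, to CD3E. CD3D made up 26.2% of the CD3D and CD3G reads in W4 (95% exact binomial interval 18.8 to 34.6%, counting error only) and 74.1% in D4 (61.0 to 84.7%). The 3 Han ++ ewes lay between these at 40.8 to 44.1%, and W1 at 62.6% (56.4 to 68.6%). The intervals of W4 and W1 do not overlap although both ewes are Han BB. Summed, the 3 chains reached 17.4 ± 5.37 CPM in Han BB, 16.0 ± 1.0999 CPM in Han ++ and 13.6 ± 4.76 CPM in Dorset.

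For the zeta chain, the row named CD247 held 2 reads in W4, 1 read in W6 and none in the other 7 libraries. A count of 0 has a 95% Poisson interval that reaches 3.69 reads, which is from 0.166 CPM in D5 to 0.359 CPM in D4. A second row, CD247.1, held 110 to 332 reads per library. The sources used here do not say what the suffix marks, and the second row was added after the values had been seen.

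CD247.1 lay at 15.8, 10.3 and 14.4 CPM in W1, W2 and W4, at 12.6, 9.05 and 10.1 CPM in W6, W7 and W8, and at 10.997, 11.3 and 17.1 CPM in D4, D5 and D6. Han ++ had the lowest mean, 10.6 ± 1.84 CPM, against 13.5 ± 2.84 in Han BB and 13.1 ± 3.44 in Dorset, and the ranges overlapped. Its log2 fold change of Han BB against Dorset was 0.04 (95% interval -0.64 to 0.72). The whole range over the 9 ewes was narrow, with a coefficient of variation of 22.3%.

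The kinase LCK had the lowest coefficient of variation of the tested members. Its levels were 10.96, 9.74 and 5.75 CPM in W1, W2 and W4, 7.06, 8.05 and 9.03 CPM in W6, W7 and W8, and 10.6, 8.47 and 6.87 CPM in D4, D5 and D6. W4 and D6 were the lowest 2 of the 9. The group means, 8.82 ± 2.72 CPM in Han BB, 8.65 ± 1.88 in Dorset and 8.05 ± 0.983 in Han ++, lay within each other's spread, and the log2 fold change of Han BB against Dorset was 0.03 (95% interval -0.71 to 0.78).

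ZAP70, the kinase that follows LCK, had 25 to 76 reads per library. It lay at 3.61, 2.45 and 1.67 CPM in W1, W2 and W4, at 2.72, 2.44 and 4.24 CPM in W6, W7 and W8, and at 2.92, 3.07 and 3.46 CPM in D4, D5 and D6. Dorset (3.15 ± 0.281 CPM) and Han ++ (3.13 ± 0.966 CPM) had almost equal means, and Han BB was lower at 2.58 ± 0.974 CPM, with W4 the lowest ewe. The log2 fold change of Han BB against Dorset was -0.29 (95% interval -1.29 to 0.72), and 0.01 without W4 and D6.

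CD2, an adhesion receptor of T cells and natural killer cells, had 63 to 311 reads per library. Its levels were 8.73, 4.97 and 8.56 CPM in W1, W2 and W4, 7.06, 9.59 and 5.80 CPM in W6, W7 and W8, and 10.02, 7.62 and 17.4 CPM in D4, D5 and D6. D6 was far above the rest, and D5 lay inside the ranges of both Han groups. Both Han groups had lower means (7.42 ± 2.12 CPM in Han BB, 7.48 ± 1.93 in Han ++) than Dorset (11.7 ± 5.08 CPM).

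The log2 fold changes of CD2 were -0.65 for Han BB against Dorset (SE 0.40, edgeR adjusted p = 0.990) and -0.64 for Han ++ against Dorset (SE 0.40, edgeR adjusted p = 1.000). Both comparisons use the same 3 Dorset libraries. Without D6 the values were -0.23 and -0.22.

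The coreceptors CD4, of helper T cells, and CD8A, the alpha chain of the CD8 coreceptor of cytotoxic T cells, were close to the limit of detection. CD4 had 15, 14 and 5 reads in W1, W2 and W4, 24, 10 and 1 reads in W6, W7 and W8, and 5, 12 and 5 reads in D4, D5 and D6. The single read of W8 has a 95% Poisson interval of 0.0253 to 5.57 reads, so its distance from its group is poorly known. The means were 0.676 ± 0.325 CPM in Han BB, 0.563 ± 0.535 CPM in Han ++ and 0.436 ± 0.138 CPM in Dorset.

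CD8A had 4, 7 and 6 reads in W1, W2 and W4, 8, 9 and 12 reads in W6, W7 and W8, and 15, 21 and 3 reads in D4, D5 and D6. D4 and D5 had the most reads, whereas D6 had the fewest. The mean was 0.858 ± 0.651 CPM in Dorset, 0.631 ± 0.411 CPM in Han ++ and 0.361 ± 0.154 CPM in Han BB. The log2 fold change of Han BB against Dorset, -1.23, had a 95% interval of -3.53 to 1.07, so at this depth neither a several-fold lower level nor a higher one in Han BB can be told from no difference.

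CD8B, the beta chain that pairs with CD8A and is no member of the list, had 83 to 284 reads per library. CD8A made up 1.39% of the reads of both chains in W1 and 13.0% in D4, with exact binomial intervals of 0.380 to 3.52% and 7.49 to 20.6%. CD8B averaged 12.5 CPM in Han BB, 9.66 CPM in Han ++ and 9.70 CPM in Dorset and was not called (Han BB against Dorset log2 fold change 0.36, edgeR adjusted p = 0.997). Lengths of the 2 rows are not in the files, so their levels cannot be set against each other.

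IL7R, the receptor for the survival cytokine interleukin 7, showed the lowest unadjusted p of the members in any comparison. It lay at 4.89, 2.73 and 6.96 CPM in W1, W2 and W4, at 1.57, 2.17 and 3.13 CPM in W6, W7 and W8, and at 2.43, 2.43 and 6.03 CPM in D4, D5 and D6. W4 and D6 were the highest 2 of the 9, and W2 lay below W8, so the Han groups overlapped. The means were 4.86 ± 2.11 CPM in Han BB, 3.63 ± 2.08 in Dorset and 2.29 ± 0.786 in Han ++.

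The IL7R log2 fold change of Han BB against Han ++ was 1.09 (SE 0.54, 95% interval -0.10 to 2.28, edgeR adjusted p = 0.999). It was 0.74 without W4 and D6 and 1.39 without W2, so the value moved with the ewes included and did not pass the adjusted threshold in either case. In W4 and D6, IL7R made up 54.7% and 46.8% of the IL7R and LCK reads, against 18.2 to 30.8% in the other 7 ewes. IL7R was highest and LCK lowest in W4 and D6, so this share had to set them apart and adds no separate evidence.

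IL7R and LCK were the 2 of the 9 tested members for which W4 and D6 lay both above or both below all other libraries. Over all tested genes this share was 35.8%.

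**Figure D2:**
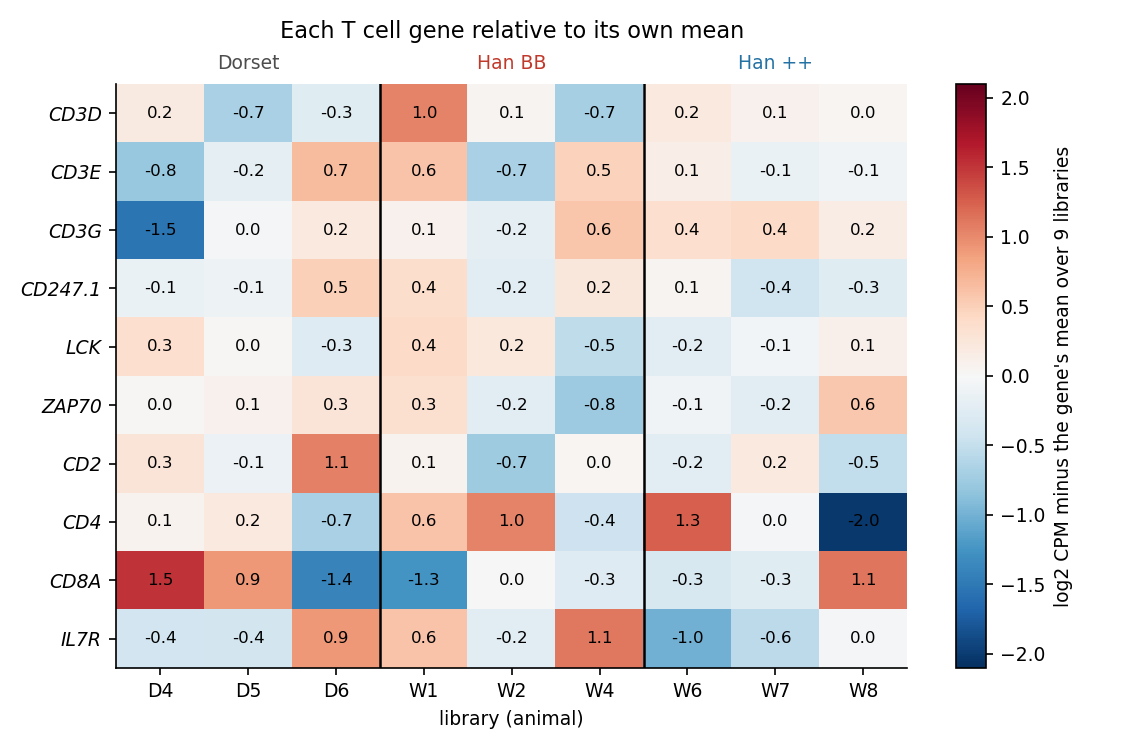
Log2 level of each T cell gene in each ewe minus the gene's own mean over the 9 ewes (colour and number), by group. No ewe is high or low for all genes; D4 is low for CD3G (-1.5) and CD3E (-0.8) and high for CD8A (1.5).

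The comparison of Han BB with Dorset asks whether T cell genes differ between a prolific breed homozygous for the B allele and the control breed. None of the 9 tested members was called, at an edgeR adjusted p under 0.05 and a fold change over 1.5, and 0% of all tested genes was called. None had an unadjusted p under 0.05, against 4.99% of all tested genes, and in none were the groups free of overlap, against 8.79%. Of the 9, 6 were higher in Han BB, with a median log2 fold change of 0.21, against -0.01 over all tested genes.

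The comparison of Han ++ with Dorset asks the same of the breed without the B allele. No member was called, while 0.00593% of all tested genes was, a single gene, ROPN1L, which encodes a protein of the sperm tail and of cilia and is named here after its value was seen. No member had an unadjusted p under 0.05 or groups without overlap, where all tested genes gave 5.27% and 11.1%. Of the 9, 3 were higher in Han ++, with a median log2 fold change of -0.04, against -0.06 over all tested genes.

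The comparison of Han BB with Han ++ holds the breed constant and asks about the FecB genotype. Again no member was called (0% of all tested genes). None had an unadjusted p under 0.05 or groups without overlap, against 1.97% and 9.38% of all tested genes. Of the 9, 5 were higher in Han BB, with a median log2 fold change of 0.13, against 0.04 over all tested genes. A single test of any difference among the 3 groups also called no member (0% of all tested genes by the adjusted p, and 3.94% by the unadjusted p, among which no member). DESeq2, which gave 7, 8 and 10 of the members an adjusted p in the 3 comparisons, and limma, which tested 9, called no member either. Of all genes with an adjusted p, DESeq2 called 0.244%, 0.405% and 0.0081% in the 3 comparisons, and limma called 0% in each. At an unadjusted p under 0.05, DESeq2 found 0 members and limma 1, CD3D in Han BB against Dorset (limma adjusted p = 0.424). In that comparison limma gave 1935 of all 16871 tested genes such a p.

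**Figure D3:**
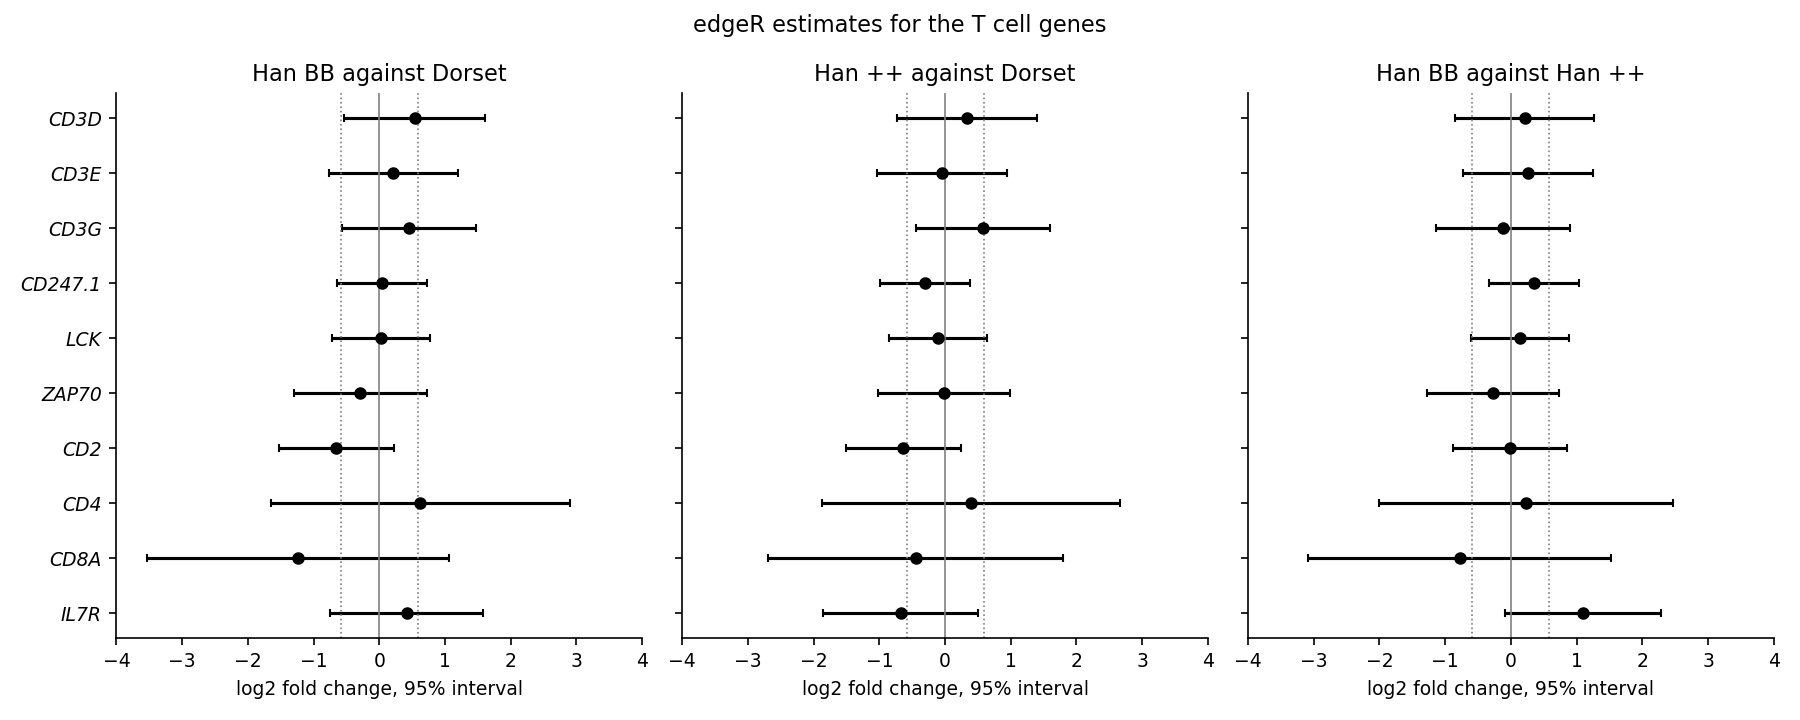
Log2 fold change of the tested T cell genes and CD247.1 in the 3 comparisons (points) with 95% intervals from edgeR (bars); dotted lines mark a fold of 1.5. All intervals include 0, from -3.53 to 1.07 for CD8A to -0.64 to 0.72 for CD247.1 in Han BB against Dorset.

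These intervals show how far a difference is limited. For LCK and CD247.1, which have the smallest spread, the intervals reached at most 1.03 in size on the log2 scale in the 3 comparisons. For CD8A they reached -3.53. The p values do not show that the groups are alike. The coefficient of variation over the 9 ewes was 20.7% for LCK, where counting alone gives 8.61%, and 31.1% for CD3G, where counting gives 11.7%. For CD8A it was 72.6%, of which counting alone gives 31.98%, so in these genes the spread between ewes exceeded the counting error.

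Correlations between the members across the ewes were mixed in sign, and they moved with the libraries W4 and D6. Over the 36 pairs of tested members, the Pearson correlation of log2 CPM over the 9 libraries had a median of -0.11 and ran from -0.77 (CD3E and CD8A) to 0.69 (CD3E and CD3G), and 15 pairs were above 0. Without W4 and D6 the median was 0.03, the range -0.70 to 0.81, and 20 pairs were above 0. These values describe 9 or 7 libraries that share their totals, and CD4 and CD8A rest on few reads. CD247.1 was the row most like the mean of the other members (r 0.59, and 0.75 without W4 and D6), and CD8A the least (-0.76 and -0.66). The value of IL7R went from -0.03 to 0.69 without them, that of LCK from -0.03 to 0.32 and that of CD3E from 0.22 to 0.49. The 7-library values were chosen after seeing the data. The CD3E and CD3G pair was high together in W4 and low together in D4.

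By mean z score of the tested members, the 10 other genes with the most similar course over the 9 libraries were ADCK4 (r 0.91), TMEM35 (0.90), SLC44A2 (0.88), RPS6KC1 (0.86), LOC101104911 (0.83), CECR1 (0.81), PLXDC2 (0.80), PSMF1 (0.80), MMP16 (0.79) and ACP6 (0.78). None of them is in the T cell or leukocyte lists described next. The mean itself was highest in W1 (0.64) and lowest in W4 (-0.25).

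Further genes of the T cell receptor pathway were taken from a list. Of 27 genes, 24 had a row and all 24 were tested. None was called in any comparison by edgeR. Against Dorset, 13 of the 24 were higher in Han BB and 11 of the 24 in Han ++, with medians of 0.03 and -0.03. Over all tested genes, 49.4% and 44.1% were higher. The most abundant were FYN, a kinase related to LCK, PLCG1, the phospholipase downstream of ZAP70, and PTPRC, the leukocyte phosphatase CD45 that activates LCK. FYN, for example, was 103 ± 9.67 CPM in Han BB, 88.6 ± 12.6 CPM in Han ++ and 125 ± 17.7 CPM in Dorset.

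At an unadjusted p under 0.05, CSK, the kinase that restrains LCK, and RASGRP1, an activator of Ras, were higher in Han ++ than in Dorset (log2 fold changes 0.85 and 1.01), and neither passed the adjusted threshold. RASGRP1 is named after its value was seen. CSK had 24.4, 30.8 and 24.95 CPM in W1, W2 and W4, 32.8, 38.0 and 44.2 CPM in W6, W7 and W8, and 25.01, 21.3 and 17.6 CPM in D4, D5 and D6. All 3 Han ++ ewes lay above the other 6 ewes (Han ++ against Dorset SE 0.26, edgeR adjusted p = 0.710). Of all tested genes, Han ++ did not overlap with Dorset in 11.1% and with Han BB in 9.38%.

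**Figure D4:**
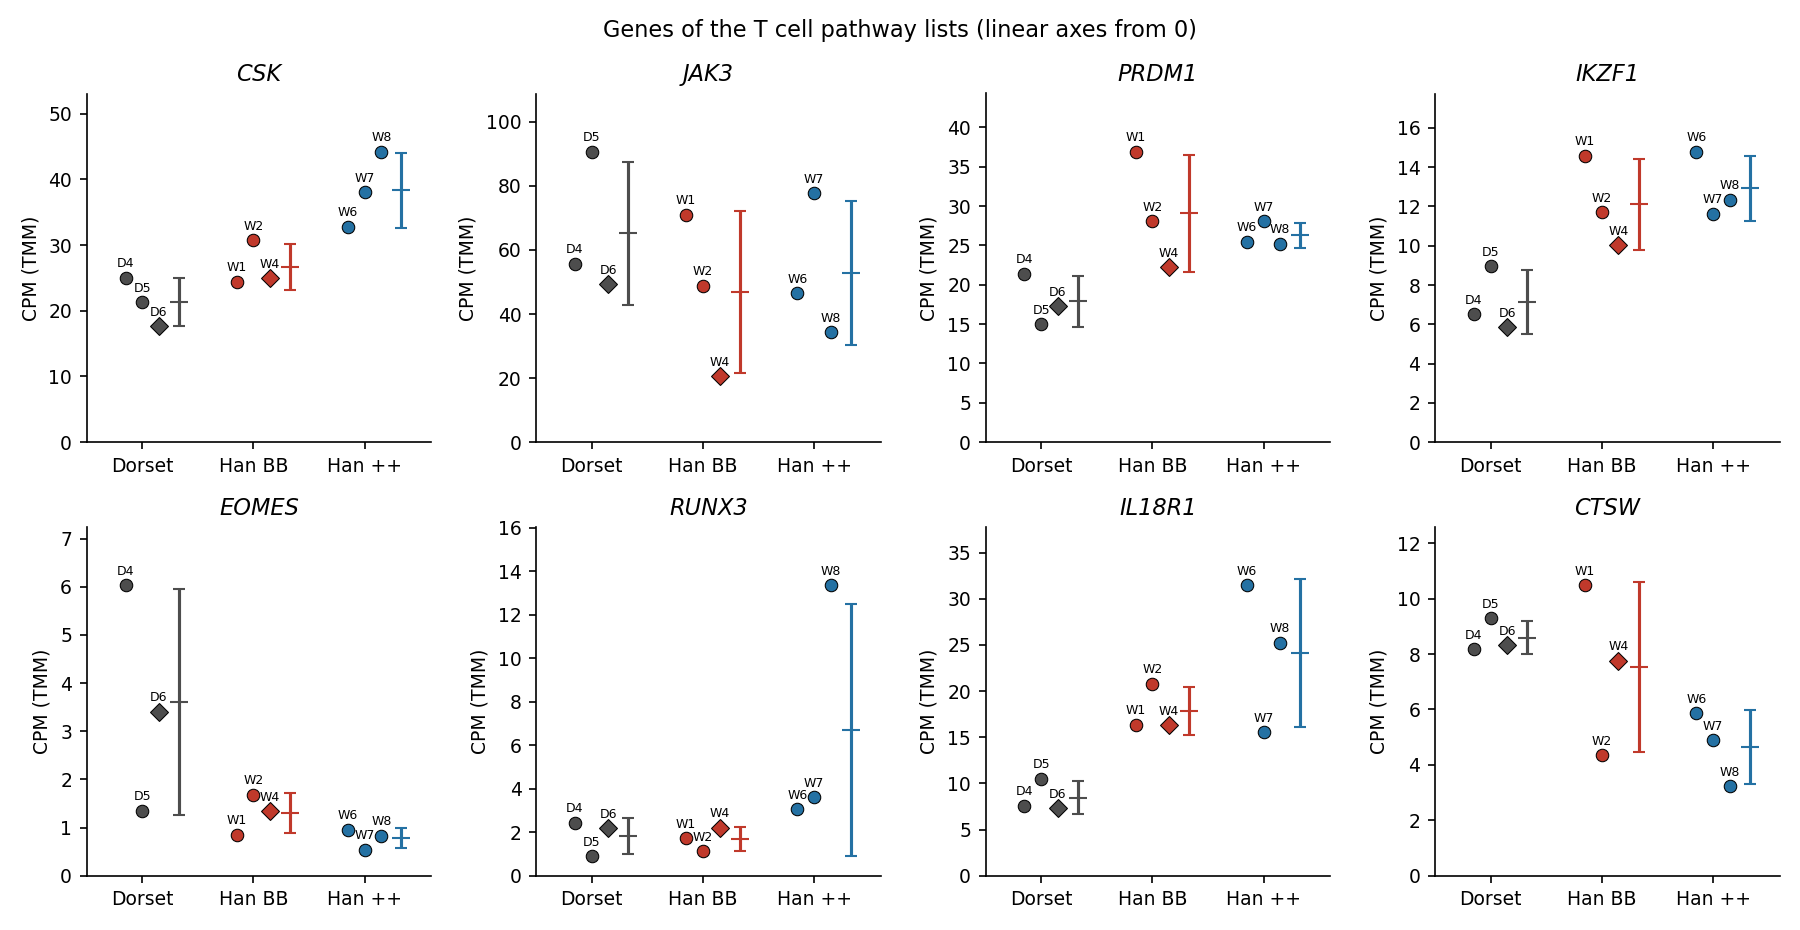
Levels in CPM (linear axes from 0) of 8 genes named from the T cell lists, in every ewe, with the group mean ± SD (n = 3); diamonds mark W4 and D6. For IL18R1 and IKZF1 the Dorset ewes lie below all Han ewes, and for CSK the Han ++ ewes above all others. None was called by edgeR. Of all tested genes, Dorset did not overlap with Han BB in 8.79% and with Han ++ in 11.1%.

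Of 16 transcription factors of T cells, 15 had a row and 12 were tested, and none was called. Against Dorset, 6 of the 12 were higher in Han BB and 7 of the 12 in Han ++, where 49.4% and 44.1% of all tested genes were. IKZF1 (Ikaros), which is needed for lymphocyte development, was 12.1 ± 2.30 CPM in Han BB, 12.9 ± 1.66 CPM in Han ++ and 7.12 ± 1.64 CPM in Dorset. Neither Han group overlapped with Dorset (log2 fold changes 0.76 and 0.86, edgeR adjusted p = 0.975 and 0.829). Of all tested genes, 8.79% showed no overlap in Han BB against Dorset and 11.1% in Han ++ against Dorset. PRDM1 (Blimp-1), a regulator of effector lymphocytes, was 29.1 ± 7.41, 26.3 ± 1.58 and 17.9 ± 3.24 CPM in the same order, and again its Dorset values lay below those of both Han groups.

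EOMES, a factor of cytotoxic and memory cells, pointed the other way. It was at 6.03, 1.35 and 3.41 CPM in D4, D5 and D6, at 0.854, 1.68 and 1.34 CPM in W1, W2 and W4, and at 0.954, 0.543 and 0.829 CPM in W6, W7 and W8 (Han ++ against Dorset log2 fold change -2.20, edgeR adjusted p = 0.727). D5 lay inside the Han BB range. RUNX3, a factor of CD8 T cells, was higher in Han ++ than in Dorset (log2 fold change 1.86, edgeR adjusted p = 0.836), with 13.4 CPM in W8 and 3.05 and 3.62 CPM in W6 and W7, against 0.902 to 2.43 CPM in the other 6 ewes. FOXP3, the factor of regulatory T cells, had at most 14 reads in a library and was not tested.

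Of 13 genes of cytokine reception and survival, 11 were tested, and IL18R1, a receptor chain for interleukin 18, was the one with unadjusted p values under 0.05 against Dorset. It lay at 7.59, 10.5 and 7.32 CPM in D4, D5 and D6, at 16.4, 20.8 and 16.3 CPM in W1, W2 and W4, and at 31.5, 15.6 and 25.2 CPM in W6, W7 and W8. Every Han ewe lay above every Dorset ewe, where 8.79% of all tested genes had no overlap of Han BB with Dorset and 11.1% of Han ++ with Dorset. The log2 fold change was 1.07 for Han BB (SE 0.32, edgeR adjusted p = 0.968) and 1.505 for Han ++ (SE 0.33, edgeR adjusted p = 0.437).

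DESeq2 called IL18R1 in Han ++ against Dorset (log2 fold change 1.505, adjusted p = 0.0153), where it called 0.405% of the genes to which it gave an adjusted p. With limma the adjusted p was 0.238. With any single library left out, the edgeR adjusted p ranged from 0.334 to 1.000, so of the 3 tools DESeq2 was the one that called it. JAK3, the kinase bound by the common gamma chain that pairs with IL7R, was 46.8 ± 25.3 CPM in Han BB, 52.8 ± 22.4 CPM in Han ++ and 65.2 ± 22.3 CPM in Dorset, with overlapping groups.

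Of 21 homing receptors and chemokines, 16 were tested and by edgeR none was called or had an unadjusted p under 0.05 in any comparison. Against Dorset, 14 of the 16 were lower in Han ++, with a median log2 fold change of -0.21, where 44.1% of all tested genes were higher. CXCL12, which retains lymphocytes in tissue, was 91.4 ± 19.8 CPM in Han BB, 67.2 ± 15.3 CPM in Han ++ and 76.6 ± 12.3 CPM in Dorset. CXCL10, an interferon induced chemokine for activated T cells, was 34.4 ± 20.1, 29.9 ± 5.81 and 52.6 ± 20.8 CPM in the same order. CCR7, a lymph node homing receptor of naive T cells, had 0.535 to 8.27 CPM over the 9 ewes.

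Markers of other cells were measured beside the T cell genes. Sums here run over the plain row of every symbol of a list, tested or not, and leave out second rows such as CD247.1. Cytotoxic and natural killer genes (12 rows, 9 of them tested) summed to 59.5 to 438 CPM per library, a far wider range than the 33.1 to 53.0 CPM of the T cell genes. Most of that sum was TYROBP, an adaptor that myeloid cells also use, with 386 CPM in D4 and 32.2 CPM in D6. CTSW, a protease of cytotoxic lymphocytes, was 8.59 ± 0.604 CPM in Dorset, 7.53 ± 3.08 in Han BB and 4.66 ± 1.34 in Han ++ (Han ++ against Dorset log2 fold change -0.88, edgeR adjusted p = 0.943).

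Macrophage and myeloid genes (19 rows, 15 tested) summed to 417 to 1290 CPM, highest in D4, the library with the lowest CD3G and CD3E. Genes of B and plasma cells (13 rows, 9 tested) summed to 10.7 to 30.1 CPM, also highest in D4. CD79B and PAX5 did not pass the filter, and CD79A and MS4A1 had at most 38 and 39 reads. Genes shared by all leukocytes (14 rows, 13 tested) summed to 223 to 540 CPM, lowest in D5 and highest in W1. Their part in the levels of the T cell genes was not tested.

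Of the leukocyte genes, 12 of 13 were higher in Han BB and 11 of 13 in Han ++ than in Dorset, with medians of 0.29 and 0.24. Over all tested genes, 49.4% and 44.1% were higher, with medians of -0.01 and -0.06. None of the 13 was called by edgeR or limma. In Han BB against Dorset, edgeR gave 2 of the 13 and limma 7 an unadjusted p under 0.05, where limma gave 1935 of all 16871 genes such a p. Of genes linked to gamma delta T cells, which are frequent in sheep, 3 of 11 had a row (RORA, SOX13 and BLK), and these are not specific to that cell. The receptor chains of gamma delta cells were not analysed here.

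Of 10 red blood cell genes, 4 had a row (ALAS2, SLC4A1, AHSP and EPB42) and 2 were tested. These rows summed to 0.268 to 7.40 CPM, highest in D4. No globin symbol of the list had a row, so the sum leaves out globin RNA. The 5 lymphatic endothelium genes summed to 219 to 343 CPM. Ovary genes were present in every library, such as CYP11A1, the enzyme that starts steroid synthesis, at 73.6 to 493 CPM. The ciliated epithelium list also held OVGP1 and PAX8, which are genes of oviduct secretory cells. It summed to 446 to 2103 CPM, and OVGP1 (371 to 1824 CPM) made up most of that sum. Of its 9 tested genes, 7 were higher in Han BB and 9 in Han ++ than in Dorset, against 49.4% and 44.1% of all tested genes. None of the 9 was called by edgeR, while DESeq2 called FOXJ1, the ciliogenesis factor, in Han ++ against Dorset (edgeR log2 fold change 1.70, edgeR adjusted p = 0.448).

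**Figure D5:**
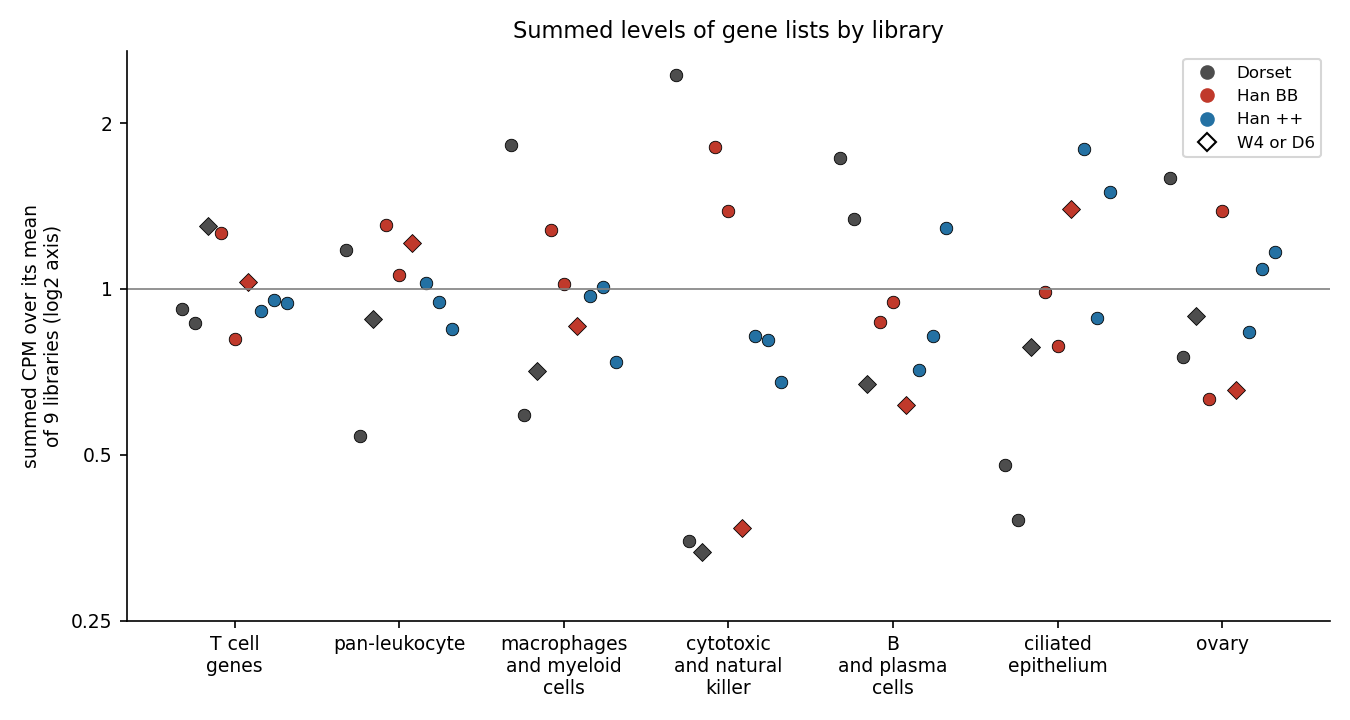
Summed CPM of each gene list in every ewe divided by the mean of the 9 ewes (log2 axis), for the T cell genes and lists of other cell types; colours give the group and diamonds W4 and D6. The T cell genes span 0.813 to 1.30, while the cytotoxic and natural killer list spans 0.333 to 2.45. Most of the ciliated epithelium sum is OVGP1, a secretory gene of the oviduct.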

How the data were processed

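Ovary RNA of 9 ewes was sequenced as paired reads on a HiSeq instrument. The authors used TopHat and Oar_v3.1, counted reads mapping to 1 place and deposited these counts per gene as raw numbers. The sources name neither the counting program nor its strand setting, and the labels and methods name different library kits. Every sample column was used. RefSeq names of another assembly matched 8 of the 10 symbols, and no coordinates or sequences are given.

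The counts were tested in R 4.3.3 with edgeR 4.0.16 (quasi-likelihood F-test, TMM, filterByExpr by group, 1 fit of 9 libraries, group as the only factor), with Benjamini-Hochberg adjustment over 16871 rows. Calls needed an adjusted p under 0.05 and a fold over 1.5. Alternatives were DESeq2 1.42.0, limma 3.58.1, other filters and scalings, and left-out libraries. Figures used matplotlib 3.10.9. Scripts were tested on simulated data. Genes named from each list were the 3 most abundant and, in the pathway lists, the one with the lowest p per comparison. Some genes that this rule names are not reported here. The members and lists were chosen with earlier results of these data known. Replicates are separate ewes. Intervals of counts and shares cover counting error only.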

Additional observations from a re-analysis of the deposited data

How the results depend on the processing

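No T cell gene was called in the main analysis, and the count was 0 in all 74 alternative counts over the 3 pairwise comparisons and the test of any difference. These counts hold little information, because few genes were called at all. In the 3 pairwise comparisons edgeR called 0%, 0.00593% and 0% of all tested genes, DESeq2 0.244%, 0.405% and 0.0081%, and limma 0%. The shares for the other alternatives are not given here. The alternatives were DESeq2, DESeq2 size factors in edgeR, limma voom with quality weights, no filter, 1 CPM in 3 libraries, fits of 2 groups, no fold threshold, a term for W4 and D6, both left out, and each library left out. The row with the most reads per symbol, which takes CD247.1 for CD247, was chosen after seeing the data and gave 0 too. Of 503 alternative values of the 30 log2 fold changes, 472 kept their sign, and 3 had an unadjusted p under 0.05. These were CD3D in Han BB against Dorset with limma (adjusted p = 0.424) and IL7R in Han BB against Han ++ without Han BB replicate 2 or without Dorset replicate 3 (edgeR adjusted p = 0.886 and 1.000).

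The sign of CD3E in Han ++ against Dorset turned from -0.04 to 0.0946 with limma, 0.30 with the term for W4 and D6 and 0.44 without them. LCK in Han BB against Dorset was -0.0012 with that term. Without W4 and D6, ZAP70 was 0.0120 in Han BB and 0.0519 in Han ++ against Dorset, and with limma it was 0.14 in Han BB against Han ++. The cause was not tested. With each library left out in turn, signs turned in these ranges. In Han BB against Dorset they were -0.0356 to 0.85 for CD3D, -0.0618 to 0.71 for CD3E, -0.15 to 0.25 for LCK and -0.0884 to 0.29 for CD247.1. In Han ++ against Dorset they were -0.32 to 0.44 for CD3E, -0.62 to 0.89 for CD4, -1.04 to 0.13 for CD8A, -0.24 to 0.0599 for LCK and -0.26 to 0.12 for ZAP70. In Han BB against Han ++ they were -0.17 to 0.22 for CD2, -0.39 to 0.52 for CD3D, -0.37 to 0.0490 for CD3G, -0.25 to 1.24 for CD4 and -0.0643 to 0.36 for LCK. The depth limits CD4 and CD8A most, with at most 24 and 21 reads in a library. No paired analysis was possible because the groups are different ewes and no 2 groups share more than 1 number in their labels.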

Other observations

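Like CD247, other symbols of the lists had their reads split between a plain row and a row with a suffix. Over all rows, 1071 symbols had a second row, which held more reads in 538 of them and over 10 times more in 522. ETS1, a factor of lymphocytes, had 117 reads in its plain row and 11847 in the second row over the 9 libraries, and STAT5B had 16 and 13561. For myeloid cells, CD14 had 49 and 6433 and ITGB2 14 and 4230. For B and plasma cells, IGJ had 338 and 2895 and TNFRSF13C 0 and 433, so the sum of that list leaves out most of their reads. For T cells, IKZF3 had 0 and 632 and the chemokine CXCL9 36 and 7971. JAK3 (9031 and 31) and CTSW (1104 and 32) were the other way round. The lists used the plain rows, so genes such as CD14 and ITGB2 fell below the expression filter there. This was looked at after the data had been seen, and the sources used here do not say what the suffix marks.

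Beyond the T cell lists, 2 leukocyte genes were higher in both Han groups than in Dorset at an unadjusted p under 0.05, named here after their values were seen. Of all tested genes, 4.99% in Han BB and 5.27% in Han ++ had such a p against Dorset, in either direction. CD37, a tetraspanin of lymphocytes, had log2 fold changes of 1.64 in Han BB (edgeR adjusted p = 0.749) and 0.99 in Han ++ (0.891). ITGAM, an integrin of myeloid cells, had 1.60 (edgeR adjusted p = 0.963) and 1.54 (0.710). Neither was called, and both comparisons share the 3 Dorset ewes. Of the 15 tested macrophage and myeloid genes, 10 were higher, against 49.4% of all tested genes, and 5 lower in Han BB than in Dorset. In Han ++, 8 were higher, against 44.1% of all tested genes, and 7 lower. Among those lower in both were C1QA (log2 fold changes -0.43 in Han BB and -0.54 in Han ++) and C1QB (-0.48 and -0.77).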
